A study of Mus musculus with 3 samples.

Results

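The genes of the major histocompatibility complex (MHC) and of antigen presentation were represented by 66 probe sets of 47 genes, out of 28944 probe sets and 19938 genes on the array. A probe set is a group of array probes read out as one signal. The members were the probe sets with a single gene symbol that starts with H2-, the mouse MHC prefix, or that is 1 of 18 listed genes of peptide processing, peptide loading, MHC transactivation, lipid presentation and costimulation. They comprised 20 probe sets of class I H2 molecules, 8 of class II H2 molecules, 30 of class I processing genes, 19 of these for Nlrc5 alone, 3 of the class II pathway, 4 of CD1d and costimulation, and H2-Ke6. No probe set with a single symbol stood for the classical class I heavy chains H2-K1 and H2-D1, so the class I values concern other class I genes and the shared processing machinery.

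Distal colons of male BALB/c mice, 10 to 12 weeks of age, were taken on day 7, and each group was 1 array of pooled RNA. IL-4Rα-/- colitis was a pool of 6 mice that were homozygous for a null allele of Il4ra (Il4ra tm1Sz) in the whole animal and drank 3% dextran sulfate sodium (DSS), a polymer that injures the colonic epithelium. WT colitis was a pool of 3 littermates with the intact gene on the same DSS, and WT normal was a pool of 4 littermates on plain water. DSS-free IL-4Rα-/- mice were not analysed here, so the effects of the knockout and of colitis cannot be told apart when IL-4Rα-/- colitis is set against WT normal. With 1 array per group, no difference has an error or a p-value, the number of arrays limits the precision, and all 3 comparisons share arrays. Il4ra itself had a log2 signal of 4.76 in IL-4Rα-/- colitis, 6.63 in WT colitis and 5.69 in WT normal. Whether its probes lie within the deleted part is not known here. Of all probe sets, 46.9% carried the same value on all 3 arrays, so a tie between arrays is given as a tie and not read as equal expression. A log2 signal of 3.5, the 95th percentile of 1210 probe sets of olfactory and vomeronasal receptors, served as a guide to background.

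MHC class I molecules display peptides from inside the cell to CD8 T cells. The peptides are cut by the proteasome, pumped into the endoplasmic reticulum by the TAP transporter and loaded with the help of tapasin onto a heavy chain paired with β2-microglobulin. MHC class II molecules display peptides from endosomes to CD4 T cells, on dendritic cells, B cells and macrophages and, during inflammation, on the intestinal epithelium, where interferon gamma is the best known inducer through the transactivator CIITA. NLRC5 plays the matching part for class I genes.

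The promoters of both classes carry short elements that these transactivators depend on: the X box, bound by the RFX complex, and the Y box, an inverted CCAAT element bound by NF-Y. The 250 bases before the RefSeq start site (GRCm38.p6, the C57BL/6J genome, not that of the BALB/c mice studied) are printed for H2-Ob, the class II gene with the largest difference, for H2-Eb1, a class II gene tied on all 3 arrays, for B2m, the light chain of class I, and for H2-Q4, a class I gene with both colitis arrays above WT normal. H2-Ob lies at chr17:34238655-34238904, H2-Eb1 at chr17:34305617-34305866, B2m at chr2:122147437-122147686 and H2-Q4 at chr17:35379367-35379616, all on the plus strand. Capitals mark CCAAT (Y box), AGCAAC (core of the X box) and GAAANNGAA (core of the interferon-stimulated response element), each searched on both strands.
H2-Ob: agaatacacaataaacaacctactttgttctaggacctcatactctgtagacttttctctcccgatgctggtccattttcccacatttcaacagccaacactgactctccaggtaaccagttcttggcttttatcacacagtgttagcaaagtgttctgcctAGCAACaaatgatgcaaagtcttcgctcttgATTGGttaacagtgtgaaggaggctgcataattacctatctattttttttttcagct
H2-Eb1: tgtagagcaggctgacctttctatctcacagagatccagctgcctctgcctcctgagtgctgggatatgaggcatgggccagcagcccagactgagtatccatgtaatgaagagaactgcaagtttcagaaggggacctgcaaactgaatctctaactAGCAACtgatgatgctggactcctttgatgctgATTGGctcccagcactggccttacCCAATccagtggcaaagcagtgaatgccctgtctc
B2m: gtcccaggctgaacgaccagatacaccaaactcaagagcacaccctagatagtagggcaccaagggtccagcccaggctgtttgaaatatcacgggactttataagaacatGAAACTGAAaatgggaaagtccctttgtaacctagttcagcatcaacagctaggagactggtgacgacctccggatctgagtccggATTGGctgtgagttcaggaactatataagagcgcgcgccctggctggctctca
H2-Q4: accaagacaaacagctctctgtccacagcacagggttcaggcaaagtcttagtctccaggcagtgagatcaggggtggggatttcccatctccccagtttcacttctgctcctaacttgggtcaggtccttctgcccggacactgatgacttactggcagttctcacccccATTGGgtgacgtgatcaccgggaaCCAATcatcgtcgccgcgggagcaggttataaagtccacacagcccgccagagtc
In H2-Ob the first letter of the X box core stood 88 bases before the start site and CCAAT 57 bases before it. H2-Eb1 had the X box core at 92 bases and CCAAT at 59 and 35 bases. B2m had CCAAT at 53 bases and the interferon element core at 139 bases, and H2-Q4 had CCAAT at 79 and 55 bases. Of the 47 member genes 33 were matched to a promoter, with 36 promoters in all. CCAAT was found in 25 of the 36, against 33.8% of all 32851 promoters searched over the same length. Many of these members are copies of one another, above all the H2-M10 genes. Both H2-M9 promoters overlap, as do those of Tap1 and Psmb9, so some CCAAT sites are counted more than once. The X box core was found in 4, those of H2-Eb1, H2-Eb2, H2-Oa and H2-Ob, against 12.2% of all promoters, and the interferon element core in 3, those of B2m, Ctss and Erap1, against 7.1%. These are matches of letters and not shown binding sites, and a missing match does not show that an element is absent. The X box core letters were matched in class II promoters only, so the lack of a mark in B2m and H2-Q4 is not read as a missing X box. H2-Ob and H2-Eb1 both held the X box core and CCAAT, and H2-Ob differed between the arrays while H2-Eb1 was tied.

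The first comparison asked how antigen presentation genes stood in IL-4Rα-/- colitis relative to WT colitis. The probe sets were mostly a little lower or tied: 40 of 66 (60.6%) lay below WT colitis, 6 (9.1%) were higher and 20 were tied. Over all probe sets, 35.6% were lower and 10.8% higher. The median difference was -0.085 on the log2 scale, with a range from -0.92 (H2-T24) to 0.14 (Psme2), beside a median of 0 over all probe sets. No member passed 2-fold in either direction, against 0.777% of all probe sets past 2-fold downward and 0.221% upward. Nlrc5 supplied 15 of the 40 lower probe sets. Without it 25 of 47 (53.2%) were lower, 6 (12.8%) higher and 16 tied. Identical values on all 3 arrays were rarer in the members, at 27.3% and at 29.8% without Nlrc5, against 46.9% of all probe sets. Fewer ties leave more probe sets to be lower or higher, so the larger share of lower ones is not read as particular to the members. These directions depend on the scale for the small differences. With each array centred on its own median, which shifts this difference by 0.07, 34 members were lower and 31 higher (51.5% and 47.0%), beside 27.0% and 71.4% of all probe sets. In pooled whole colon, fewer cells of a type and less RNA per cell cannot be told apart.

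In the comparison of WT colitis with WT normal, 40 of 66 members (60.6%) were higher, 4 (6.1%) lower and 22 tied, beside 33.9% higher and 12.5% lower over all probe sets. Without Nlrc5, 55.3% were higher and 8.5% lower, and the rarer ties among the members bear on these shares too. The median difference of the 66 members was 0.135, with a range from -0.11 to 0.92. Again 0 members passed 2-fold, against 1.06% of all probe sets past 2-fold upward and 0.408% downward. With each array centred on its median, 57.6% of the members were higher and 40.9% lower, beside 26.1% and 72.5% of all probe sets.

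IL-4Rα-/- colitis and WT normal were closer to each other: 19 members (28.8%) were higher in IL-4Rα-/- colitis, 8 (12.1%) lower and 39 tied, beside 16.2% and 17.7% of all probe sets, and the median was 0 in the members and in all probe sets. The range was -0.27 to 0.51, and 0 members passed 2-fold, against 0.207% of all probe sets past 2-fold upward and 0.321% downward. After quantile normalization 33 of the 66 members were higher and 14 lower, beside 41.8% and 31.5% of all probe sets.

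**Figure D1:**
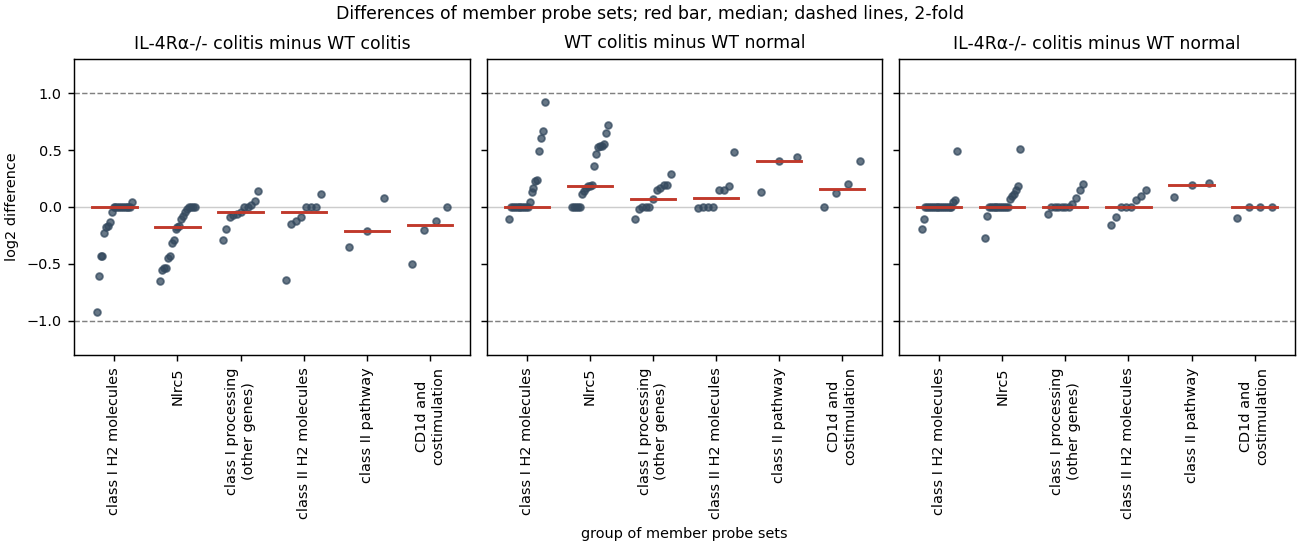
Log2 differences of the 66 member probe sets (y axis) in 5 functional groups, with Nlrc5 drawn apart from the other class I processing genes and H2-Ke6 not drawn, for the 3 comparisons; red bars are medians and dashed lines mark 2-fold. All points lie between the dashed lines, with H2-T24 at -0.92 and 0.92 the farthest from 0.

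Of the 20 class I heavy chain probe sets with a single symbol, 14 stayed under the background guide on all 3 arrays, with signals from 2.13 to 3.29, among them the H2-M10 genes, H2-M1, H2-M9 and H2-M11, H2-M2, H2-M5, H2-Q10, H2-Bl and H2-K2. H2-K2, a transcribed pseudogene in RefSeq, had 2.79 in IL-4Rα-/- colitis, 3.22 in WT colitis and 2.98 in WT normal, so no fold is given. H2-Bl was also a symbol of a left-out probe set with several symbols, which lay above the guide on all 3 arrays. The H2-M10 and H2-M1 families are known from vomeronasal neurons. The other 6 reached or passed the guide and are described one by one, H2-T24, H2-M3, H2-Q2 and H2-T10 having been named after their values were seen.

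H2-T24, a nonclassical class I gene of the T region, had signals of 4.36 in IL-4Rα-/- colitis, 5.28 in WT colitis and 4.36 in WT normal. WT colitis stood above both other arrays, which were tied. The log2 difference was -0.92 for IL-4Rα-/- colitis minus WT colitis, a ratio of 0.529, and 0.92 for WT colitis minus WT normal, a ratio of 1.89. This was the largest difference of any member in both comparisons, and it stayed short of 2-fold. H2-M3, which presents N-formylated peptides of bacteria and mitochondria, had the same order, at 5.19 in IL-4Rα-/- colitis, 5.80 in WT colitis and 5.19 in WT normal (log2 differences of -0.61, 0.61 and 0).

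H2-Q4, a nonclassical gene of the Q region, stood at 7.86 in IL-4Rα-/- colitis, 8.04 in WT colitis and 7.37 in WT normal. Here both colitis arrays lay above WT normal, by 0.49 in IL-4Rα-/- colitis and 0.67 in WT colitis, and the 2 colitis arrays differed by only -0.18. H2-Q5, which RefSeq annotates as a transcribed pseudogene in C57BL/6J, had 7.14 in IL-4Rα-/- colitis, 7.57 in WT colitis and 7.08 in WT normal. It was highest in WT colitis and nearly level between the other arrays. H2-Q2 had 4.61, 4.74 and 4.61 in the same order of groups, and H2-T10, also a pseudogene in RefSeq, had 3.56 on all 3 arrays. Class I genes of the Q, T and M regions are close copies, so their probes may read RNA of relatives, and the strain studied differs from the reference in these genes. Over the 20 class I probe sets, 9 were lower, 1 higher and 10 tied in IL-4Rα-/- colitis minus WT colitis, and 9 higher, 1 lower and 10 tied in WT colitis minus WT normal, both with a median of 0. These directions turned with the scale: with each array centred on its median, 12 were higher and 8 lower in IL-4Rα-/- colitis minus WT colitis (median 0.07), and 8 higher and 12 lower in WT colitis minus WT normal (median -0.07). After quantile normalization 9 were higher and 9 lower in both. Class I probe sets with several symbols, the classical heavy chains among them, are not part of these counts.

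**Figure D2:**
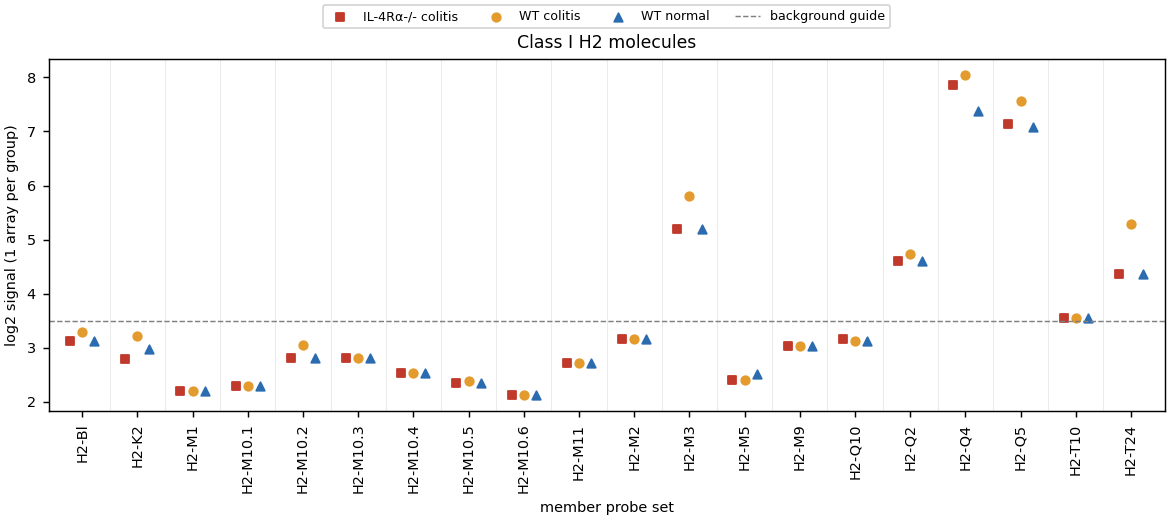
Log2 signals (y axis) of the 20 class I H2 probe sets (x axis) in IL-4Rα-/- colitis (squares), WT colitis (circles) and WT normal (triangles), 1 array of pooled RNA per group, with the background guide of 3.5 dashed. Most lie under the guide, and H2-T24 and H2-M3 show WT colitis above a tied pair.

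The light chain and the peptide loading machinery of class I differed little. B2m, β2-microglobulin, had 11.94 in IL-4Rα-/- colitis, 12.03 in WT colitis and 11.86 in WT normal. The TAP transporter subunits differed from each other in pattern: Tap1 had 7.14 in IL-4Rα-/- colitis, 7.43 in WT colitis and 7.14 in WT normal, whereas Tap2 had 6.14 on every array. Tapbp, tapasin, which bridges TAP and the heavy chain, had 8.76 in IL-4Rα-/- colitis, 8.83 in WT colitis and 8.76 in WT normal. Tapbpl, the tapasin-related peptide editor, had 6.10 in IL-4Rα-/- colitis, 6.29 in WT colitis and 6.10 in WT normal. All 4 genes with a difference were highest in WT colitis, by no more than 0.29.

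The immunoproteasome subunits, which replace the constitutive catalytic subunits under interferon, showed no common direction. Psmb8 had 6.15 on all 3 arrays. Psmb9 had 7.01 in IL-4Rα-/- colitis, 6.96 in WT colitis and 6.81 in WT normal, and Psmb10 had 7.73 in IL-4Rα-/- colitis, 7.71 in WT colitis and 7.73 in WT normal. Their differences did not exceed 0.20. Psme1 and Psme2, the subunits of the proteasome activator PA28, stood at 8.70 and 9.53 in IL-4Rα-/- colitis, 8.76 and 9.39 in WT colitis, and 8.76 and 9.50 in WT normal. Psme2 was thus lowest in WT colitis, opposite to most members. Erap1, the aminopeptidase that trims peptides in the endoplasmic reticulum, had 6.21 in IL-4Rα-/- colitis, 6.25 in WT colitis and 6.06 in WT normal. Over the 11 class I processing probe sets other than Nlrc5, 6 were lower, 3 higher and 2 tied in IL-4Rα-/- colitis minus WT colitis (median -0.04, from -0.29 to 0.14), and 6 were higher, 2 lower and 3 tied in WT colitis minus WT normal (median 0.07). With each array centred on its median the first of these medians turned positive, since it is smaller than the shift of 0.07. The second is the same size as that shift, so it is not read as a rise.

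Nlrc5, the class I transactivator, was read by 19 probe sets, which belong to one gene and one RNA source and are not 19 observations of the groups. In IL-4Rα-/- colitis minus WT colitis 15 were lower, 0 higher and 4 tied (median -0.18, from -0.65 to 0). For WT colitis minus WT normal 14 were higher, 0 lower and 5 tied (median 0.18, from 0 to 0.72). IL-4Rα-/- colitis and WT normal were tied in 11, with 6 higher and 2 lower in IL-4Rα-/- colitis. The probe set with the largest difference between WT colitis and WT normal had 6.07 in IL-4Rα-/- colitis, 6.61 in WT colitis and 5.89 in WT normal, a ratio of 1.65 for WT colitis over WT normal. The brightest one had 7.17 in IL-4Rα-/- colitis, 7.28 in WT colitis and 7.17 in WT normal. The size of the difference therefore varied within the gene, while WT colitis was never below IL-4Rα-/- colitis or WT normal on the deposited scale. With each array centred on its median, 13 were lower and 6 higher in IL-4Rα-/- colitis minus WT colitis, with a median of -0.11.

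**Figure D3:**
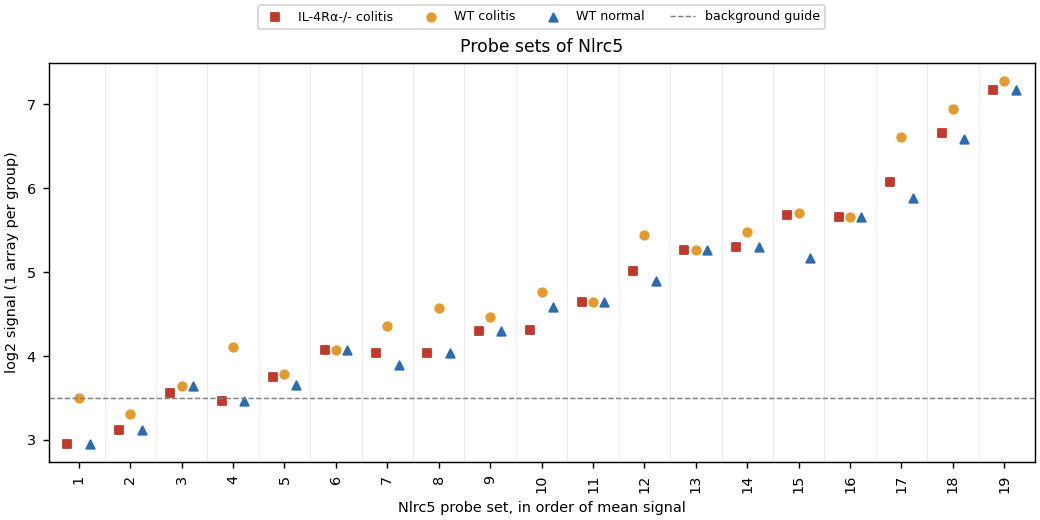
Log2 signals (y axis) of the 19 Nlrc5 probe sets (x axis, in order of mean signal) in IL-4Rα-/- colitis (squares), WT colitis (circles) and WT normal (triangles), 1 array per group, with the background guide dashed. WT colitis is highest or tied for highest in each probe set on the deposited scale.

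No class II H2 probe set was under the background guide on all 3 arrays, whereas 14 of the 20 class I H2 probe sets were. The classical class II chains lay far above the background guide and were nearly level across the arrays. H2-Aa, the A alpha chain, had 9.32 in IL-4Rα-/- colitis, 9.32 in WT colitis and 9.17 in WT normal, and H2-Ab1, the A beta chain, had 8.51 in IL-4Rα-/- colitis, 8.40 in WT colitis and 8.41 in WT normal. H2-Ea, the E alpha chain, had 9.33 in IL-4Rα-/- colitis, 9.45 in WT colitis and 9.27 in WT normal. RefSeq lists H2-Ea as a transcribed pseudogene because C57BL/6J does not make the E alpha chain, whereas BALB/c mice do. H2-Eb1, the E beta chain, had 7.82 on all 3 arrays, and H2-Eb2, a second E beta gene, had 3.61 in IL-4Rα-/- colitis, 3.76 in WT colitis and 3.61 in WT normal, close to the background guide. None of the 4 classical chains differed by more than 0.18.

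The nonclassical class II molecules control peptide loading in endosomes. H2-DMa, a chain of the H2-DM molecule that exchanges peptides on class II, had 7.31 on every array. The other chain of H2-DM was read only by a probe set with several symbols, which is not part of these counts and was highest in WT colitis. H2-Oa and H2-Ob encode H2-O, the inhibitor of H2-DM, known mainly from B cells and thymic epithelium. H2-Ob had 5.07 in IL-4Rα-/- colitis, 5.71 in WT colitis and 5.23 in WT normal. WT colitis was the highest and IL-4Rα-/- colitis the lowest, with a log2 difference of -0.64 for IL-4Rα-/- colitis minus WT colitis and 0.48 for WT colitis minus WT normal, the largest in class II. H2-Oa was at the guide, with 3.41 in IL-4Rα-/- colitis and 3.50 in both WT colitis and WT normal. Of 12 B cell markers measured, 11 were lower for IL-4Rα-/- colitis minus WT colitis (median -0.70) and 11 higher for WT colitis minus WT normal (median 0.56). Their summed linear signal was 378.6 in IL-4Rα-/- colitis, 587.4 in WT colitis and 386.1 in WT normal. No B cell marker was under the guide on all 3 arrays. Fcer2a, the low-affinity IgE receptor CD23, had 3.63 in IL-4Rα-/- colitis, 4.75 in WT colitis and 4.14 in WT normal, past 2-fold at -1.12 in IL-4Rα-/- colitis minus WT colitis. Cxcr5, the receptor that guides B cells to follicles, had 3.21 in IL-4Rα-/- colitis, 4.2 in WT colitis and 3.21 in WT normal. Its signals in IL-4Rα-/- colitis and WT normal were under the guide of 3.5. Ms4a1, which encodes CD20, had 5.05 in IL-4Rα-/- colitis, 5.99 in WT colitis and 4.87 in WT normal. The part of B cell number in the H2-Ob values was not tested. For the 8 class II probe sets as a group the median was -0.045 for IL-4Rα-/- colitis minus WT colitis, which turned to 0.025 with each array centred on its median, and 0.075 for WT colitis minus WT normal, which became 0.005.

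The class II pathway members were the transactivator, a protease and the invariant chain, and they did not all behave alike. Ciita, the transactivator, had 5.06 in IL-4Rα-/- colitis, 5.41 in WT colitis and 4.97 in WT normal (log2 differences of -0.35, 0.44 and 0.09). Ctss, cathepsin S, which removes the invariant chain from class II, had 7.46 in IL-4Rα-/- colitis, 7.67 in WT colitis and 7.27 in WT normal (-0.21, 0.40 and 0.19). Both were highest in WT colitis, and the classical chains did not show a difference of that size. Cd74, the invariant chain that guides class II to endosomes, had 10.40 in IL-4Rα-/- colitis, 10.32 in WT colitis and 10.19 in WT normal, and so was highest in IL-4Rα-/- colitis. These 3 genes were the only group of members in which every probe set of IL-4Rα-/- colitis lay above WT normal, by 0.09 to 0.21 as deposited, an order that held after either rescaling. Macrophage and monocyte markers, which mark cells rich in Ctss, were lower in 14 of 18 measured in IL-4Rα-/- colitis minus WT colitis (median -0.325), with 1 higher, and higher in 15 of 18 in WT colitis minus WT normal (median 0.355). Their summed linear signal was 1780 in IL-4Rα-/- colitis, 2534 in WT colitis and 1843 in WT normal, with Ccr2 under the guide on all 3 arrays. Cd163, a scavenger receptor of resident macrophages, had 3.12 in IL-4Rα-/- colitis, 4.22 in WT colitis and 3.12 in WT normal. Its differences of -1.10 and 1.10 were past 2-fold, but 2 of its 3 signals were under the guide. Mrc1, the mannose receptor, had 5.0 in IL-4Rα-/- colitis, 5.84 in WT colitis and 5.0 in WT normal. Dendritic cell markers were tied on all 3 arrays in 8 of 11, beside 46.9% of all probe sets. Of the tied ones, Xcr1, Clec9a, Batf3, Siglech and Clec10a were under the guide. These ties are not read as equal expression or as a contrast with the macrophage markers. The share of macrophages in the values of Ciita, Ctss and Cd86 was not tested.

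**Figure D4:**
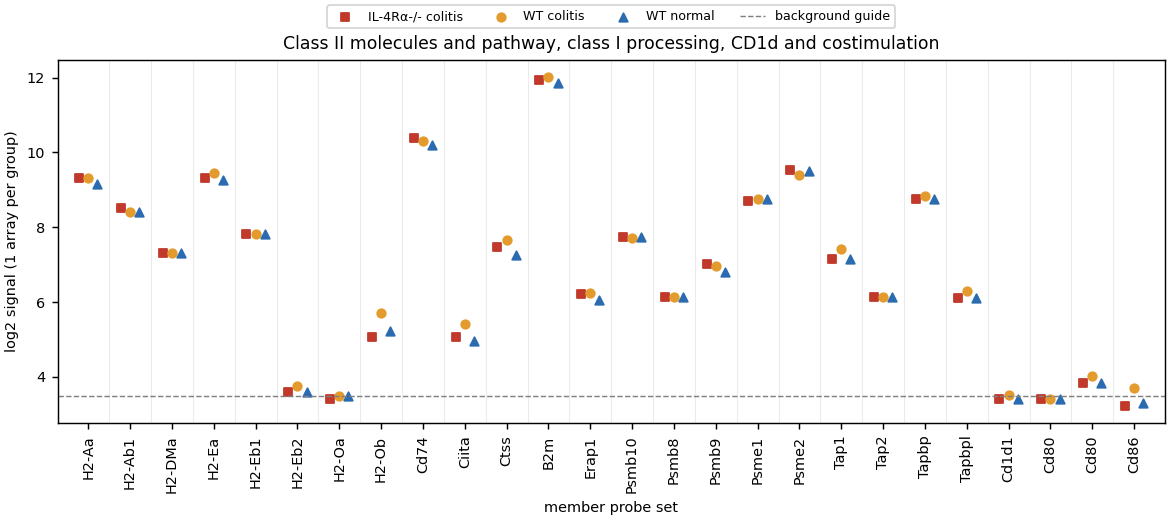
Log2 signals (y axis) of the class II molecules and pathway, the class I processing genes other than Nlrc5, and CD1d and costimulation (x axis) in IL-4Rα-/- colitis (squares), WT colitis (circles) and WT normal (triangles), 1 array per group, with the background guide dashed. The classical class II chains nearly coincide, while H2-Ob, Ciita and Cd86 show WT colitis above the other arrays.

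Lipid presentation and costimulation were faint. Cd1d1, which presents lipids to NKT cells, had 3.41 in IL-4Rα-/- colitis, 3.53 in WT colitis and 3.41 in WT normal. Cd80, a ligand of CD28, was read by 1 probe set at 3.83 in IL-4Rα-/- colitis, 4.03 in WT colitis and 3.83 in WT normal, and by another at 3.41 on every array, under the guide. Cd86, the other CD28 ligand, had 3.21 in IL-4Rα-/- colitis, 3.71 in WT colitis and 3.31 in WT normal, with WT colitis the only array above the guide, so its difference of -0.50 has no fold. H2-Ke6, an enzyme gene inside the complex (Hsd17b8) and not an MHC molecule, had 5.93 in IL-4Rα-/- colitis, 6.04 in WT colitis and 5.93 in WT normal.

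The genes around the pathway were described with lists of related function. Genes induced by interferon gamma other than the members were lower in 12 of 14 and higher in 1 in IL-4Rα-/- colitis minus WT colitis, with a median of -0.405, and higher in 12 and lower in 1 in WT colitis minus WT normal, with a median of 0.59. Gbp9, a guanylate-binding protein of cell-autonomous defence, had 4.07 in IL-4Rα-/- colitis, 4.94 in WT colitis and 4.15 in WT normal, and Gbp3 had 5.30, 6.03 and 5.07 in these groups. Ido1, a tryptophan-degrading enzyme, went against the list, with 8.73 in IL-4Rα-/- colitis, 8.03 in WT colitis and 6.17 in WT normal. It was the only gene of this list past 2-fold, by 2.56 in IL-4Rα-/- colitis minus WT normal and 1.86 in WT colitis minus WT normal. Ifng itself was under the guide, with 2.95 on all 3 arrays, and Irf1, an interferon-responsive transcription factor, had 8.00 on all 3. Of the 10 interferon gamma signalling genes, 6 were lower and 1 higher in IL-4Rα-/- colitis minus WT colitis (median -0.01), and 5 were higher and 0 lower in WT colitis minus WT normal (median 0.01). Irf2, a factor that binds the same elements as Irf1, had 7.70 in IL-4Rα-/- colitis, 8.20 in WT colitis and 7.55 in WT normal, the largest difference of this list between the colitis arrays.

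Of the 7 RFX, NF-Y and related factor genes that bind the X and Y boxes, 3 were lower and 1 higher in IL-4Rα-/- colitis minus WT colitis, and 3 were higher and 0 lower in WT colitis minus WT normal. Rfx5 had 5.06 in IL-4Rα-/- colitis, 5.55 in WT colitis and 4.78 in WT normal. Nfyb had 5.69 in IL-4Rα-/- colitis, 6.00 in WT colitis and 4.89 in WT normal, and its 1.11 in WT colitis minus WT normal passed 2-fold. Among the 8 endosomal protease and reductase genes, Lgmn, the asparagine endopeptidase legumain, had 8.34 in IL-4Rα-/- colitis, 9.09 in WT colitis and 7.87 in WT normal and was past 2-fold in WT colitis minus WT normal, at 1.22. The 16 constitutive proteasome genes (median 0.035) and 5 peptide loading chaperones (median 0) stood near 0 in IL-4Rα-/- colitis minus WT colitis. Of the 10 other costimulatory and checkpoint ligands 5 were under the guide, and Cd274, which encodes PD-L1, had 6.20 in IL-4Rα-/- colitis, 6.50 in WT colitis and 5.80 in WT normal.

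The labelled tissue was checked with 15 colon epithelium markers, of which 0 were under the guide. Their median difference was 0.03 in IL-4Rα-/- colitis minus WT colitis and -0.13 in WT colitis minus WT normal, and Slc26a3, a chloride transporter of surface colonocytes, had 10.01 in IL-4Rα-/- colitis, 9.05 in WT colitis and 10.11 in WT normal. The summed signal of these markers was 3.195e+04 in IL-4Rα-/- colitis, 3.14e+04 in WT colitis and 3.357e+04 in WT normal. Of 7 markers of colon segment and muscle, 3 were higher and 3 lower in IL-4Rα-/- colitis minus WT colitis (median 0), and 1 was higher and 5 lower in WT colitis minus WT normal (median -0.04). Hoxd13, a patterning gene of the hindgut, had 6.31 in IL-4Rα-/- colitis, 5.66 in WT colitis and 5.70 in WT normal, and Des, the muscle filament desmin, had 9.82 in IL-4Rα-/- colitis, 10.17 in WT colitis and 10.26 in WT normal.

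**Figure D5:**
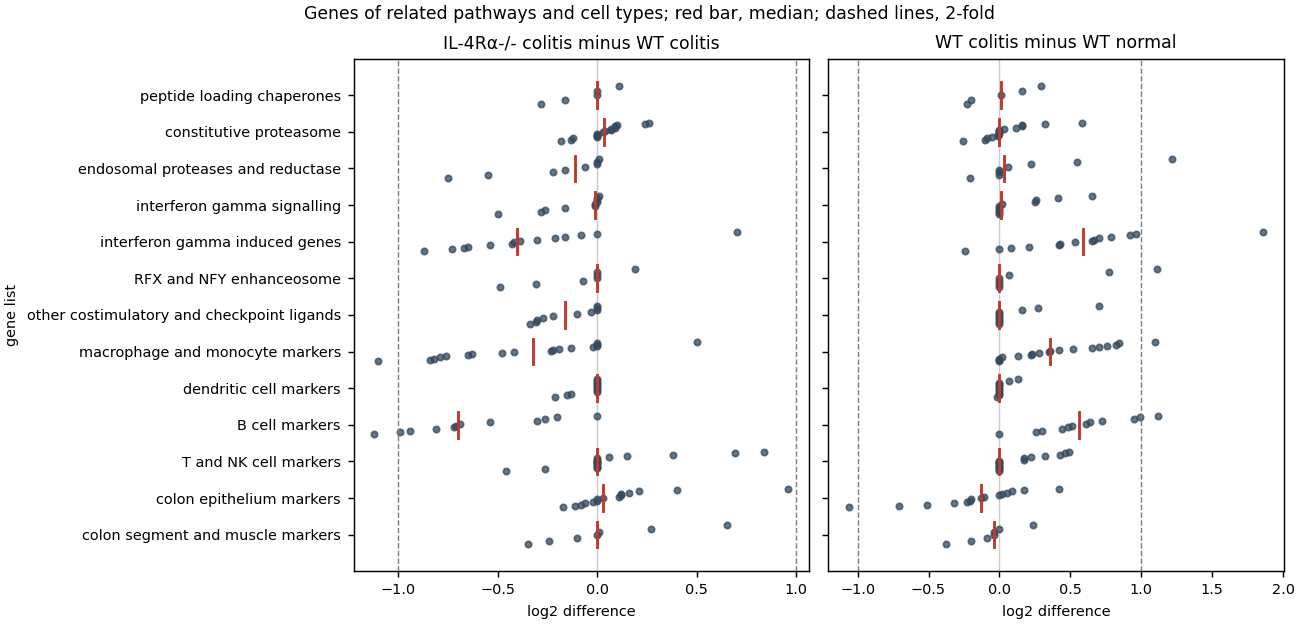
Log2 differences (x axis) of the genes of 13 related lists (y axis), each point 1 gene, for IL-4Rα-/- colitis minus WT colitis and WT colitis minus WT normal; red bars are medians and dashed lines mark 2-fold. B cell markers (-0.70 and 0.56), interferon gamma induced genes (-0.405 and 0.59) and macrophage markers (-0.325 and 0.355) have the medians farthest from 0.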

How the data were processed

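The deposited file holds log2 values, rounded to 2 decimals, of 28944 probe sets, from 1 array each of RNA pooled from 6 IL-4Rα-/- colitis, 3 WT colitis and 4 WT normal mice. The study's methods name the GeneChip Mouse Gene 1.0 ST array, whereas the labels describe a Cy3 labelling kit of another maker, and the probe set numbers were those of the platform annotation used for gene symbols. The summary and normalization of the deposited log2 values are not given in the sources used here. Of the probe sets, 21789 had 1 symbol, 1621 several and 5534 none.

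Log2 differences were taken from the deposited values as they stand, with 3 comparisons and no test, because no group has a replicate array. A probe set was called past 2-fold at a log2 difference above 1.0 or below -1.0, and groups of genes were described by counts and medians beside those of all probe sets. Listed members and class II molecules were named with every signal, as were the 3 brightest of the other H2 probe sets (H2-Q4, H2-Q5 and H2-Ke6) and, of each related list, at most the 4 genes with the largest absolute difference between the colitis arrays. Ifng and Irf1 were named beyond this rule after their values were seen. The members, lists and motifs were chosen with earlier results of these data known. A related gene with several probe sets was given by the brightest. Promoters came from RefSeq on GRCm38.p6 and were matched by gene.

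Alternatives were quantile normalization, centring on the median, raising signals to the background guide, an offset of 32 on the linear scale, a filter at the median of all values (4.14), and the brightest or the mean probe set of each gene. The direction counts under both rescalings were added after seeing the data. Counting steps were tested on simulated data. Python 3.11.15, numpy 2.4.6, pandas 2.3.3 and matplotlib 3.10.9 were used.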

Additional observations from a re-analysis of the deposited data

How the results depend on the processing

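No member passed 2-fold in any of the 3 comparisons under any of the 7 alternatives. For most of these the outcome was fixed in advance. Raising signals to the guide and the offset can only shrink differences. The filter and the brightest or mean probe set keep or average the same values. Only quantile normalization and centring can enlarge a difference. Of 63 group medians recomputed, 61 moved by less than the spread of the differences (0.178 to 0.222), and the other 2 were those of the class I H2 molecules when only probe sets above the median of all values were kept. Their median was then -0.43 in IL-4Rα-/- colitis minus WT colitis and 0.61 in WT colitis minus WT normal, both 0 as deposited, because that filter removes the faint class I probe sets. Quantile normalization and centring shifted the differences of all probe sets by a median of at most 0.07, which is as large as many member differences and turns the sign of the small ones. Signals under the guide limit what can be seen of 16 member probe sets. No paired analysis was possible because each group has 1 array.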

Other observations

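Probe sets with several symbols, at least 1 of them an MHC or antigen presentation gene, were left out of the members because their signal cannot be given to one gene. There were 11 of these. Their log2 differences were from -0.36 to 0.55 in IL-4Rα-/- colitis minus WT colitis, with 2 higher and 6 lower, and from -0.21 to 0.42 in WT colitis minus WT normal, with 7 higher and 1 lower. None passed 2-fold in any of the 3 comparisons. The 8 with an H2- symbol had signals from 5.91 to 9.73, all above the background guide. The symbols of 2 of them included both classical class I heavy chains. Of these 2, 1 had 9.53 in IL-4Rα-/- colitis, 9.73 in WT colitis and 9.59 in WT normal, and the other had 8.85, 9.18 and 8.92 in these groups, so that WT colitis was highest in both. The class II probe set of H2-DMb1 and H2-DMb2 had 7.40 in IL-4Rα-/- colitis, 7.76 in WT colitis and 7.37 in WT normal. Its log2 differences were -0.36 for IL-4Rα-/- colitis minus WT colitis and 0.39 for WT colitis minus WT normal. The probe set of H2-Q1 and H2-Bl went the other way, with 6.65 in IL-4Rα-/- colitis, 6.10 in WT colitis and 6.31 in WT normal. WT colitis was lowest there. The 0.55 in IL-4Rα-/- colitis minus WT colitis was the largest absolute difference of the 11 probe sets left out.

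Markers of the cells that read these molecules gave mixed values. Of 16 T and NK cell markers measured, 5 were higher and 2 lower in IL-4Rα-/- colitis minus WT colitis, and 7 were higher and 0 lower in WT colitis minus WT normal, both with a median of 0. Cd3d, Cd247, Prf1, Ncr1 and Klrb1c were under the background guide on all 3 arrays. Gzmb, a granzyme of cytotoxic cells, had 5.63 in IL-4Rα-/- colitis, 4.79 in WT colitis and 4.30 in WT normal, and Gzma had 5.38, 4.69 and 4.26 in these groups. Both were past 2-fold in IL-4Rα-/- colitis minus WT normal, at 1.33 and 1.12. Cd4 had 4.54 in IL-4Rα-/- colitis, 5.0 in WT colitis and 4.54 in WT normal. Cd8a had 4.66 in IL-4Rα-/- colitis and 4.28 in both WT colitis and WT normal. The summed linear signal of the list was 373.9 in IL-4Rα-/- colitis, 336 in WT colitis and 291.6 in WT normal.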
